A study of Mus musculus with 8 samples.

Results

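The insulin-like growth factor (IGF) system and the glypican gene Gpc3 were followed in postnatal day 8 mouse testes, as the array signals of 10 genes: the ligands Igf1 and Igf2, the receptors Igf1r and Igf2r, the binding proteins Igfbp2, Igfbp3, Igfbp4, Igfbp5 and Igfbp7, and Gpc3. Every non-control probe that carried 1 of these 10 names was taken, which gave 17 probes for 10 of the 27670 gene names on the array, and 16 of the 17 were bright enough to be analysed. In VRK1-deficient testes the Gpc3 signal was 2.02-fold that of wild type, Igfbp2 was the only one of the 10 genes with a lower mean, and the other 8 genes had higher means by between 0.05 and 0.84 on the log2 scale. These genes were selected on this very comparison, since they were proposed with its signals already known. Their differences between genotypes are therefore given as a description. The genes were part of the test over all probes, but nothing is read from their calls.

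Total RNA of whole testes was measured on 8 single-colour arrays, 4 of wild type mice and 4 of VRK1-deficient mice, each labelled as a biological replicate of male mice at postnatal day 8. The mutant mice carried a gene trap, a β-geo cassette in intron 3 of Vrk1 from an embryonic stem cell line, bred onto C57BL/6. The trap leaves some normal Vrk1 transcript, so the mutants model reduced VRK1, a nuclear kinase, rather than its complete loss, and they carried it in every cell type of the testis. The 2 Vrk1 probes retained 6.23% and 6.54% of the wild type signal in VRK1-deficient testes (limma adjusted p = 0.000135 and 2.09e-05), and the genotypes did not overlap on either probe.

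IGF1 and IGF2 are secreted peptides that act through the IGF1 receptor, a tyrosine kinase that feeds the PI3K and AKT pathway, and they promote growth and survival of many cells, among them the Sertoli and Leydig cells of the testis. The IGF2 receptor takes up and degrades IGF2 and also carries lysosomal enzymes tagged with mannose 6-phosphate. IGF-binding proteins hold the peptides in the extracellular space and limit or prolong their action, and glypican-3 is a heparan sulfate proteoglycan tethered to the cell surface whose loss causes overgrowth in mice and humans.

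Values are log2 signals relative to the 75th percentile of all non-control spots of the same array, so that 0 is a signal at that percentile, and a difference is the mean of the VRK1-deficient arrays minus that of wild type. Since probes differ in how brightly they bind, the level of 1 probe was not set against that of another. The 75th percentile signal ranged from 642 to 851 in wild type and from 548 to 745 in VRK1-deficient arrays, and between 63.6% and 69.5% of the spots of an array were well above background. The arrays lay on 2 slides, with replicates 1 and 2 of both genotypes on slide 1 and replicates 3 and 4 on slide 2. Wild type arrays took positions 1 and 2 and VRK1-deficient arrays positions 3 and 4 on each slide, so position and genotype cannot be told apart.

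Wild type replicate 1 stood apart from its group. Over all analysed probes its correlation with the other wild type arrays was 0.970 to 0.986, and with the VRK1-deficient arrays 0.987 to 0.990. Its germ cell markers summed to 43.5, where the remaining wild type arrays ranged from 87.9 to 122 and the VRK1-deficient arrays from 26.9 to 49.8. Its Sertoli markers summed to 383, where those ranges were 247 to 277 and 340 to 406. The differences below on which this array bears most are also given without it.

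All 57 marker genes of the 7 cell types examined were detected, those of Sertoli, Leydig, peritubular myoid, stromal, endothelial, macrophage and germ cells. All 9 germ cell markers had lower means in VRK1-deficient testes, by 0.93 on average on the log2 scale (a difference of -1.19 without wild type replicate 1), and 2 of them passed the test. All 7 stromal markers had higher means, with summed signals of 237 to 293 in wild type and 302 to 338 in VRK1-deficient arrays, and 3 passed the test. Sertoli markers were 0.44 higher and Leydig markers 0.28 higher on average (0.60 and 0.38 without that array), with 12 of 14 and 5 of 7 having higher means and none passing the test (limma adjusted p under 0.05). Endothelial markers, all 7 with higher means, were 0.27 higher on average, with summed signals of 4.57 to 6.14 and 5.94 to 7.50, macrophage markers, also all 7, were 0.09 higher (-0.09 without scaling), with 4.998 to 6.52 and 5.92 to 6.62, and none of either list passed. Peritubular markers were 0.15 lower on average, with 140 to 155 and 122 to 157, and 1 of the 6, Cnn1, passed the test, at -0.99 (limma adjusted p = 0.0445). That average rests on Cnn1, since Acta2, Myh11, Tagln and Actg2 differed by -0.09 to -0.03 and Des by 0.33. In whole testes, fewer cells of a type and less RNA per cell cannot be told apart, and the part that these markers have in the results below was not tested.

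**Figure D1:**
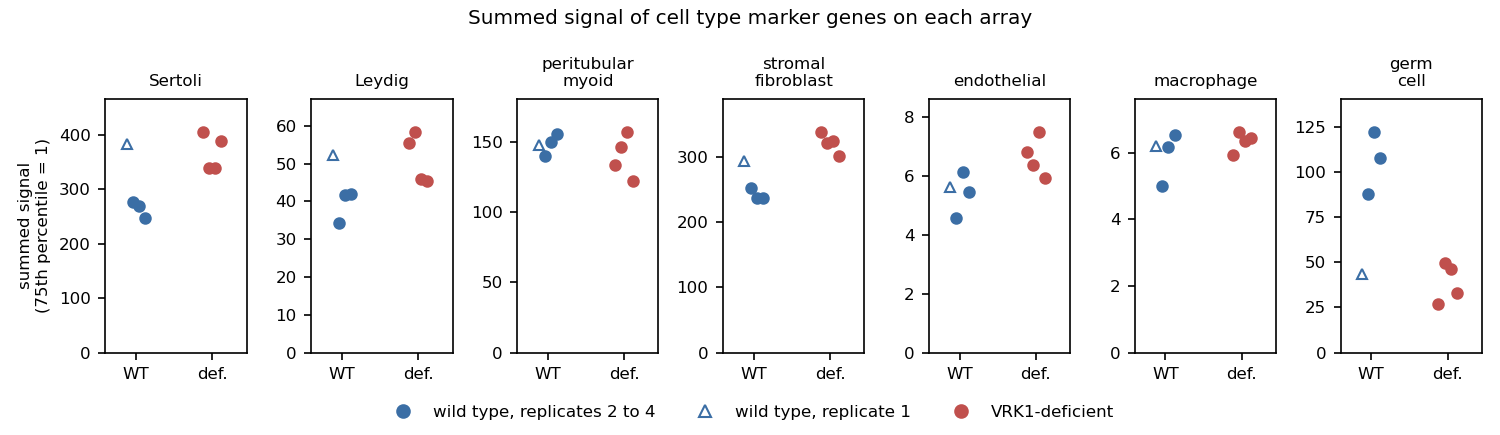
Summed signal of the marker genes of 7 cell types on each array (75th percentile of an array = 1, linear axes from 0), with wild type (WT) and VRK1-deficient (def.) arrays as points. Wild type replicate 1, the open triangle, lies among the VRK1-deficient arrays for the Sertoli, Leydig and germ cell markers and below all of them for the stromal markers.

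Over all 26948 analysed probes, 1.67% were called higher and 1.99% lower in VRK1-deficient testes (limma adjusted p under 0.05), which is 3.66% in either direction. Of the 16 probes of the IGF system and Gpc3, 2 were among those called higher, Gpc3 and 1 of the Igfbp3 probes, and 1 among those called lower, Igfbp2. In 6 of the 16 all VRK1-deficient arrays were above all wild type arrays, as in 9.40% of all probes, and in 1 all were below, as in 7.31%. The genes were picked by this contrast, so nothing is read from these counts. The median difference of the 16 probes was 0.47, and that of all analysed probes was 0.04. Without scaling to the 75th percentile every difference moved by -0.18, the median of all probes was -0.14 and the probes called numbered 64 higher and 852 lower, in place of 451 and 535.

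**Figure D2:**
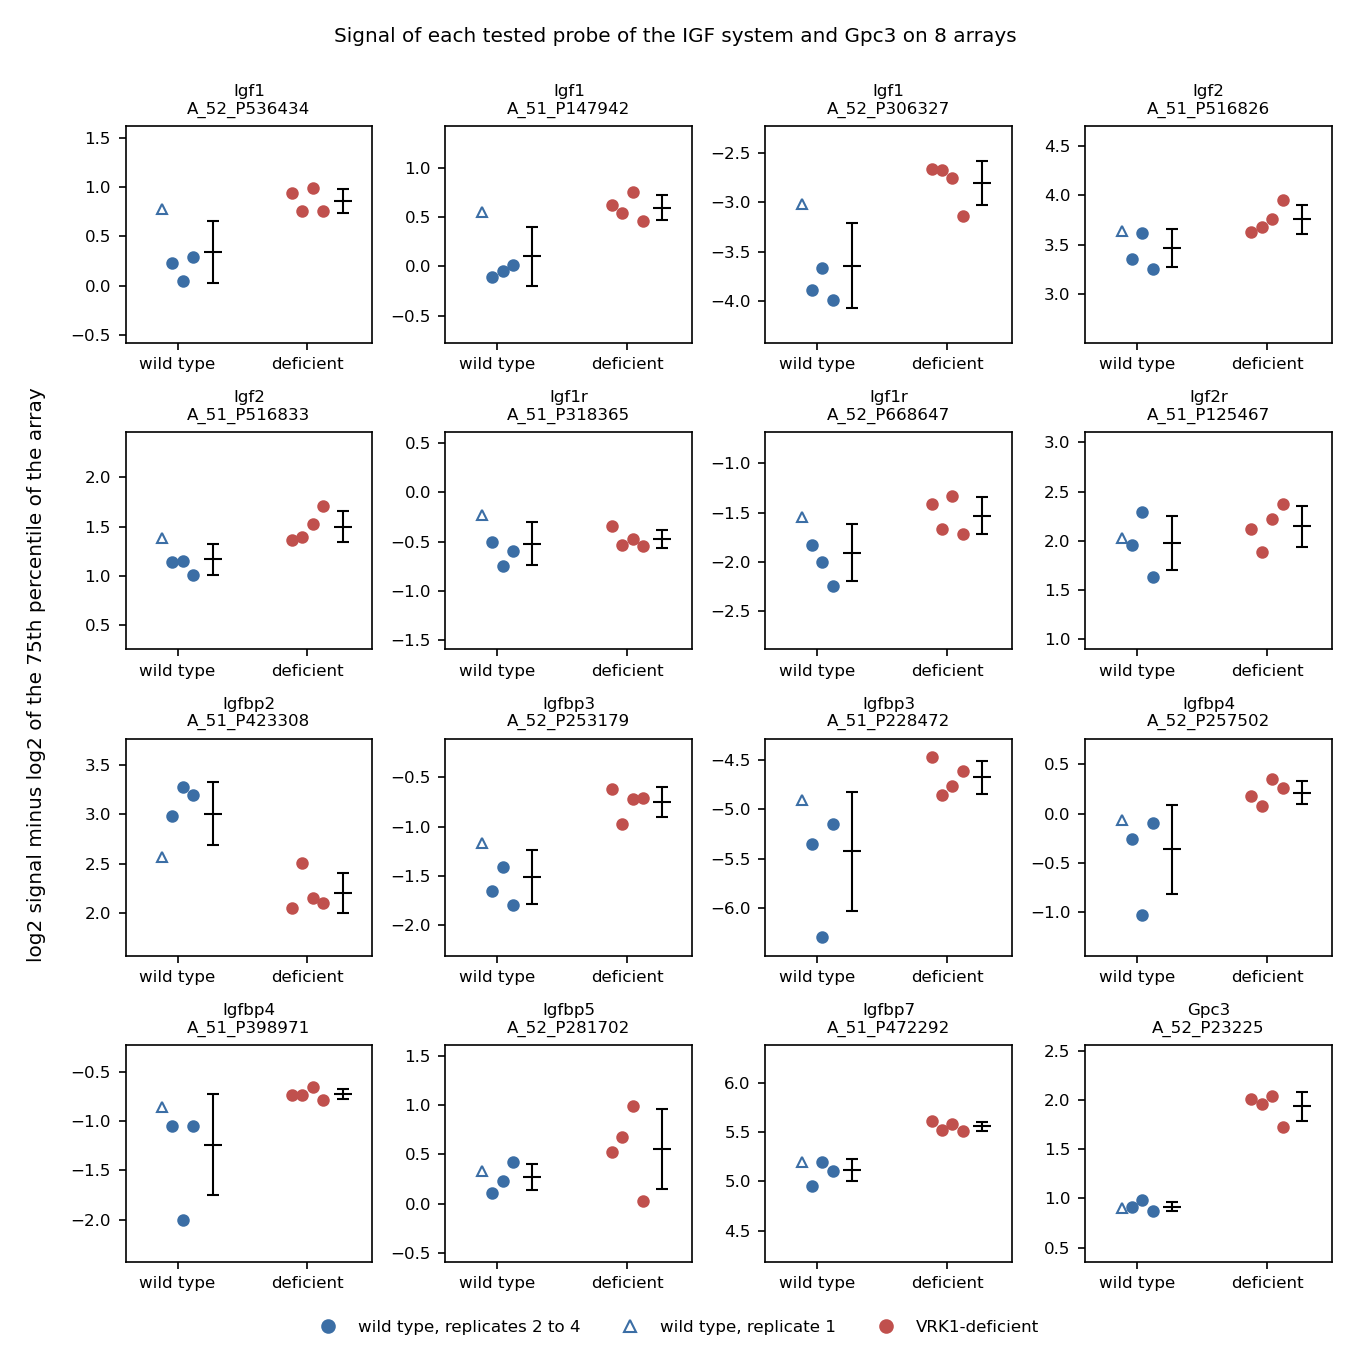
Log2 signal of each of the 16 analysed probes on the 8 arrays, relative to the 75th percentile of each array, with every panel spanning the same range. Points are arrays, the open triangle is wild type replicate 1, and the bars give the mean and SD of 4 arrays. The genotypes are widest apart for Gpc3, and for Igf1 the triangle lies at the height of the VRK1-deficient arrays.

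Gpc3, on the X chromosome, had a single probe (A_52_P23225, transcript NM_016697, chrX:47364815-47364874 on the minus strand, mouse build mm7). The first 30 of its 60 bases are shown because this is the only sequence behind the Gpc3 values. The probe's place in the exons and untranslated regions was not looked up.

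Gpc3 A_52_P23225, first 30 bases: aaatggtatctttatgaggatggtaaattt

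On the wild type arrays, replicates 1 to 4, the Gpc3 signal was 0.91, 0.91, 0.98 and 0.87, and on the VRK1-deficient arrays 2.01, 1.96, 2.04 and 1.72. The groups were separated by a gap of 0.74, wider than the range of either group, and wild type replicate 1 lay with the other wild type arrays. The means were 0.92 ± 0.05 and 1.93 ± 0.14 (SD, n = 4 each), a difference of 1.02 with a limma standard error of 0.11. Slide 1 by itself gave 1.07 and slide 2 gave 0.96. Dropping wild type replicate 1 left the difference at 1.01, and dropping any single array left it between 0.98 and 1.09.

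The Igf1 gene had 3 probes. A_52_P536434 (chr10:87471884-87471943, plus strand) is shown whole, because it reads the coding sequence of the mature IGF1 peptide itself.

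Igf1 A_52_P536434: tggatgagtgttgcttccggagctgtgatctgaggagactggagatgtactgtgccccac

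Its signal was 0.78, 0.23, 0.05 and 0.29 in wild type and 0.94, 0.76, 0.99 and 0.75 in VRK1-deficient testes. The groups overlapped through 1 array, wild type replicate 1, which lay above 2 of the VRK1-deficient arrays, while the other wild type arrays were below all of them. The difference was 0.52 (limma standard error 0.16), and 0.67 without wild type replicate 1. A_51_P147942 (chr10:87488982-87489041), spotted 10 times on each array, gave 0.55, -0.11, -0.04 and 0.02 against 0.62, 0.54, 0.76 and 0.46, a difference of 0.49, or 0.64 without that array. The SD between its 10 spots on 1 array had a median of 0.045, and the SD between arrays was 0.30 in wild type and 0.13 in VRK1-deficient testes, so spot noise was small beside the spread between arrays.

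The third Igf1 probe, A_52_P306327 (chr10:87420848-87420907), was designed on a cDNA clone. It gave -3.02, -3.89, -3.66 and -3.99 in wild type and -2.66, -2.67, -2.75 and -3.13 in VRK1-deficient testes. The difference was 0.84 (limma standard error 0.22), or 1.04 without wild type replicate 1. On the 3 probes that array lay 88.2%, 92.6% and 79.2% of the way from the mean of the other wild type arrays to the VRK1-deficient mean. The 3 probes followed each other closely, with Pearson's r between 0.91 and 0.98 over the 8 arrays.

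Both Igf2 probes came from the same stretch of chromosome 7, A_51_P516826 at chr7:139078075-139078135 and A_51_P516833 at chr7:139078490-139078549, on the minus strand. Their first 30 bases are given so that the sequences behind the pair can be told apart.

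Igf2 A_51_P516826, first 30 bases: aacatgcattttctggcaaaatcaaagctt
Igf2 A_51_P516833, first 30 bases: gacagaaactcaaagagtaaattgttataa

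A_51_P516826 gave 3.64, 3.36, 3.62 and 3.26 in wild type and 3.62, 3.68, 3.76 and 3.95 in VRK1-deficient testes. The groups overlapped, with wild type replicate 1 above the lowest VRK1-deficient array, and the difference was 0.29 (limma standard error 0.13), or 0.34 without that array. A_51_P516833 gave 1.38, 1.14, 1.16 and 1.01 against 1.37, 1.40, 1.52 and 1.71, a difference of 0.33, with the same array in the overlap, or 0.40 without it. The pair correlated at 0.94 over the 8 arrays. The Igf2 differences were larger within slide 2, at 0.42 and 0.54, than within slide 1, at 0.16 and 0.12.

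The receptor probes included the 2 smallest differences, those of Igf2r and of 1 Igf1r probe. The Igf1r probe A_51_P318365 (chr7:64082649-64082708, plus strand) gave -0.23, -0.51, -0.75 and -0.59 in wild type and -0.34, -0.54, -0.47 and -0.55 in VRK1-deficient testes. The VRK1-deficient arrays lay inside the wild type range, the difference was 0.05 (0.14 without wild type replicate 1), and its sign turned to -0.07 within slide 1, to -0.03 without wild type replicate 3 and to -0.13 without scaling. The other Igf1r probe, A_52_P668647 (chr7:64043608-64043667), designed on a cDNA clone, gave -1.55, -1.83, -2.0 and -2.24 against -1.41, -1.67, -1.33 and -1.71, a difference of 0.38 (0.49 without wild type replicate 1), and the pair correlated at 0.66. Igf2r had 1 probe (A_51_P125467, chr17:11399590-11399648, minus strand), with signals of 2.02, 1.96, 2.30 and 1.63 in wild type and 2.12, 1.88, 2.22 and 2.37 in VRK1-deficient testes. Its groups overlapped, and its difference of 0.17 fell to 0.05 without wild type replicate 4 and to -0.01 without scaling.

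The binding proteins held the only lower member. The probe of Igfbp2 (A_51_P423308, chr1:73093964-73094023, plus strand) reads the last codons of the protein, and its final 3 bases, in capitals, are the stop codon. Probes of Igfbp3 and Igfbp4 that also read coding sequence are given beside it, so that the lower member and 2 of the higher ones can be set together. The Igfbp3 probe spans more of the genome than its 60 bases, chr11:7160474-7161483 on the minus strand, and so crosses an intron. The Igfbp4 probe lies at chr11:99157316-99157375 on the plus strand.

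Igfbp2 A_51_P423308: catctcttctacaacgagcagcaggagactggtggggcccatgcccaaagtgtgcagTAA
Igfbp3 A_51_P228472: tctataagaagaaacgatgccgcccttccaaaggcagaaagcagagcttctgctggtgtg
Igfbp4 A_51_P398971: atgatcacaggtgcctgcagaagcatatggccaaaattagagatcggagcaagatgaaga

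Igfbp2, a binding protein abundant in fetal and reproductive tissues, had signals of 2.56, 2.98, 3.28 and 3.20 in wild type and 2.05, 2.50, 2.15 and 2.10 in VRK1-deficient testes. All VRK1-deficient arrays were below all wild type arrays, but the gap was only 0.06, between wild type replicate 1 and VRK1-deficient replicate 2. The means were 3.01 and 2.20, a difference of -0.80 (limma standard error 0.18), which was -0.95 without wild type replicate 1. It amounted to -0.49 on slide 1 and to -1.11 on slide 2.

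Igfbp3, the main carrier of IGFs in blood, was read by 2 probes with the same difference of 0.75. A_52_P253179 (chr11:7158599-7158658) gave -1.17, -1.65, -1.41 and -1.80 in wild type and -0.62, -0.97, -0.72 and -0.71 in VRK1-deficient testes. Its groups did not overlap, and the difference had a limma standard error of 0.16 and was 0.86 without wild type replicate 1. The intron-crossing probe A_51_P228472 gave -4.91, -5.35, -6.29 and -5.15 against -4.47, -4.86, -4.76 and -4.61, also without overlap. It was dim, with 1 wild type array on which it was not well above background, and its difference was 0.93 when wild type replicate 1 was dropped, 0.46 when wild type replicate 3 was dropped and 0.39 after normexp background correction. The probes correlated at 0.66 over the 8 arrays, but at only 0.12 once the group means were removed.

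Igfbp4, a binding protein that mainly restrains IGF action, also had 2 probes without overlap. A_52_P257502 (chr11:99161059-99161118) gave -0.07, -0.26, -1.03 and -0.10 in wild type and 0.18, 0.07, 0.35 and 0.26 in VRK1-deficient testes, a difference of 0.58. A_51_P398971 gave -0.86, -1.05, -2.0 and -1.05 against -0.74, -0.73, -0.66 and -0.78, a difference of 0.51. Wild type replicate 3 was far below the rest on both, and without it the differences were 0.36 and 0.26. Without wild type replicate 1 they were 0.68 and 0.64. The pair kept a correlation of 0.96 after removal of the group means.

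Igfbp5, whose protein binds IGFs in the extracellular matrix, had 1 analysed probe (A_52_P281702, chr1:73100116-73100175, minus strand). It gave 0.33, 0.11, 0.24 and 0.42 in wild type and 0.52, 0.68, 0.99 and 0.03 in VRK1-deficient testes. The VRK1-deficient arrays held both the highest and the lowest signal, and the difference of 0.28 became 0.46 without VRK1-deficient replicate 4 and 0.13 without VRK1-deficient replicate 3. The other Igfbp5 probe, A_51_P204153, rose well above background on a single wild type array and on none of the VRK1-deficient ones, and no fold is reported.

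Igfbp7, a secreted protein of low affinity for IGFs found in vessels and stroma, was read at chr5:77280659-77280718 on the minus strand (A_51_P472292). Its signals were 5.20, 4.95, 5.20 and 5.11 in wild type and 5.61, 5.52, 5.58 and 5.51 in VRK1-deficient testes. The groups did not overlap and the arrays of each lay close together, with an SD of 0.11 in wild type and 0.05 in VRK1-deficient testes. The difference was 0.44 (limma standard error 0.10), with 0.49 within slide 1 and 0.40 within slide 2.

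**Figure D3:**
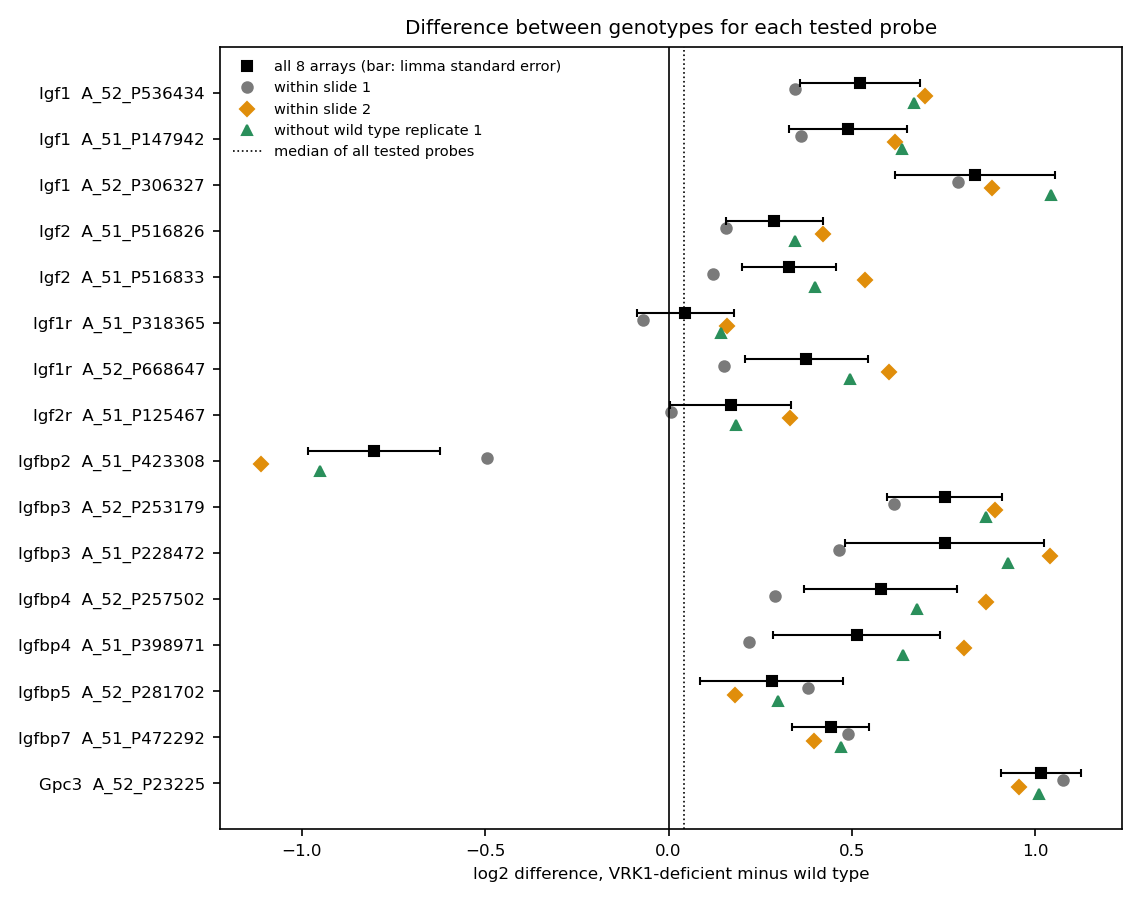
Log2 difference, VRK1-deficient minus wild type, of each analysed probe from all 8 arrays with its limma standard error, within each slide, and without wild type replicate 1. The dotted line is the median of all analysed probes. Gpc3 and Igfbp7 keep nearly the same difference in all 4 settings, Igfbp2 alone lies left of 0 in all 4, and A_51_P318365 of Igf1r straddles 0.

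Across the 16 probes, 15 had the same sign in both slides, the exception being A_51_P318365 of Igf1r. In 13 of the 16 the difference was larger in size within slide 2, as in 68.3% of all analysed probes. In 13 of the 16, wild type replicate 1 was the wild type array nearest to the VRK1-deficient mean, against 44.7% of all analysed probes. Gpc3 was among the 3 where it was not, and there the array lay -1.60% of the way from the other wild type arrays to the VRK1-deficient mean. For Igfbp7 it lay 24.0% of the way and for Igfbp2 62.1%.

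Among the members, Igfbp7 followed Gpc3 most closely, with Pearson's r of 0.95 over the 8 arrays, and Igfbp3 (A_52_P253179) came next at 0.88. The r of Gpc3 with Igfbp2 was -0.84 and with A_51_P318365 of Igf1r 0.17. Among 26940 analysed probes searched, those of highest r with Gpc3 were Zfp386 at 0.996, Tril at 0.987, Wnt5b at 0.985, Sugt1 at 0.985 and Clca3a2 at 0.984. These points share arrays and a genotype contrast, so the values describe likeness of pattern and carry no test. The genotype difference of Zfp386, a zinc finger gene, was 2.31, and those of Tril, Wnt5b, Sugt1 and Clca3a2 were between 0.28 and 0.58.

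The other genes of the pathway were taken from 10 lists with 95 genes reported here, of which 87 had an analysed probe. The lists were chosen with earlier results of these data known, so their counts are given as a description. In VRK1-deficient testes 4 of the 87 genes rose and 1 fell (limma adjusted p under 0.05), which is 5.75%, against 3.66% of all probes. The median difference over the 87 was 0.08, against 0.04 over all probes. Each gene was read from its brightest analysed probe, while the values over all probes count every analysed probe, so they are not strictly alike. The 5 were Sdc2, Sdc3, Mmp2 and Ccn4, which rose, and Sulf1, which fell. None of the 5 kept an adjusted p under 0.05 once any array other than wild type replicate 1 was dropped, with values between 0.064 and 0.15. Over all probes, the calls in those fits fell from 986 to between 3 and 68. With the slide as a block, Mmp2 alone passed, at an adjusted p of 0.0473, and the other 4 were at 0.0507 to 0.0515. Without wild type replicate 1, 29 of the 87 passed, 19 higher and 10 lower, and over all probes 7655 of 26948 passed in that fit. An unadjusted p under 0.05 was reached by 28.8% of all analysed probes, the share against which the unadjusted counts below stand. Where a gene named below had further analysed probes, they had the same sign as the one given, except for Sdc3 and Extl3.

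**Figure D4:**
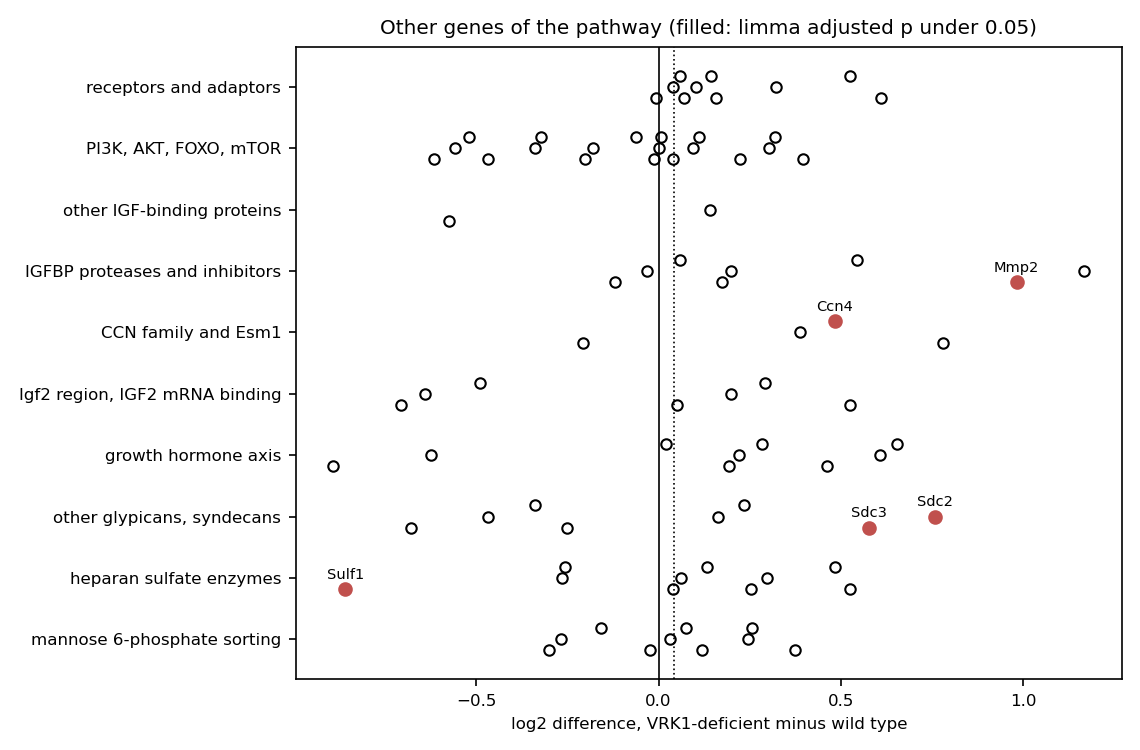
Log2 difference, VRK1-deficient minus wild type, of 87 other genes of the IGF system and of heparan sulfate biology, in 10 lists with 1 point per gene. Filled points passed the test (limma adjusted p under 0.05), and the dotted line is the median of all analysed probes. Most lists spread to both sides of it.

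Syndecans are the other family of heparan sulfate proteoglycans on the cell surface beside the glypicans. Sdc2 was 0.84 ± 0.22 in wild type and 1.60 ± 0.23 in VRK1-deficient testes (SD, n = 4 each), and rose by 0.76 (limma adjusted p = 0.0471), while its other probe differed by 0.25. Sdc3 rose by 0.58 (limma adjusted p = 0.0473), while its other analysed probe differed by -0.11. Sdc1 differed by -0.47 (limma adjusted p = 0.111). None of the 4 other glypicans with an analysed probe passed the test. Their values were added here after they were seen: Gpc4, the neighbour of Gpc3 on the X chromosome, differed by 0.23 and 0.36 on its 2 probes, Gpc1 by 0.16, Gpc2 by -0.68 (limma adjusted p = 0.151) and Gpc6 by -0.25 and -0.15. Whether Gpc3 differed more than its relatives was not tested, since Gpc3 was chosen for its change.

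Of the enzymes that build or release heparan sulfate, 1 of 10 passed the test. Sulf1, an extracellular sulfatase that removes sulfate groups from heparan sulfate, fell by 0.86 (limma adjusted p = 0.0471), from 0.65 ± 0.28 to -0.21 ± 0.25 (SD, n = 4 each). Ext1, a polymerase of the chain, differed by 0.52 (adjusted p = 0.0621) and Extl3 by 0.30, with its other analysed probe at -0.47.

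Among 8 proteases and inhibitors that act on binding proteins, Mmp2, a gelatinase that can cleave them, rose by 0.98 (limma adjusted p = 0.0473), or 1.17 without wild type replicate 1. Its signals were 2.34, 1.85, 1.32 and 1.52 in wild type and 2.89, 2.65, 2.76 and 2.65 in VRK1-deficient testes. The groups did not overlap, and wild type replicate 1 was the highest of its group. Stc1, a stanniocalcin whose protein blocks a protease of IGFBP4, differed by 1.17 (adjusted p = 0.0569) and Adamts1 by 0.54 (adjusted p = 0.065). Of the other binding protein genes, Igfbpl1 differed by -0.57 (adjusted p = 0.114) and Igfbp6 by 0.14. In the CCN family, matrix proteins with a domain like that of the binding proteins, Ccn4 rose by 0.48 (limma adjusted p = 0.0477), and Ccn1 and Ccn2, with differences of 0.78 and 0.39, did not pass.

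Downstream of the receptors, none of the 19 genes reported from the PI3K, AKT, FOXO and mTOR list passed the test by limma, and 5 had an unadjusted p under 0.05, near the 28.8% of all probes. Foxo1, a transcription factor held in check by AKT, differed by -0.56 (adjusted p = 0.0588), Pik3cb by -0.62 (adjusted p = 0.0595) and Mtor by -0.52 (adjusted p = 0.0605). Of 10 receptors and adaptors none passed, 9 had higher means (3 without scaling), and 2 had an unadjusted p under 0.05, against 28.8% of all probes. Irs1, the adaptor next to the receptor, differed by 0.52 (adjusted p = 0.0544), Grb14 by 0.61 (adjusted p = 0.0588) and Insrr by 0.32.

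In the 3 remaining lists no gene passed the test by limma, and 12 of their 26 genes had an unadjusted p under 0.05, against 28.8% of all probes. Of the genes of the Igf2 region and the binders of its mRNA, the zinc finger gene Plagl1 differed by 0.53 (adjusted p = 0.0559), Igf2bp1, an RNA-binding protein of Igf2 mRNA, by -0.64 (adjusted p = 0.0615) and Ins2, the insulin gene beside Igf2, by -0.71 (adjusted p = 0.0615). Of the growth hormone axis, which drives Igf1 in liver, Prlr differed by 0.61 (adjusted p = 0.055), Jak2 by -0.62 and Socs1 by -0.89. Of the mannose 6-phosphate sorting genes, which share a route with IGF2R, Ctsl differed by 0.38 (adjusted p = 0.0786), Gga3 by -0.30 and Nagpa by -0.27.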

How the data were processed

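Total RNA of 8 testis samples was labelled with Cy3 by the authors and hybridised to Agilent Whole Genome Mouse arrays of 60-base probes. The deposited values are the processed signal intensity of each spot, background-subtracted by Agilent Feature Extraction 9.5.3.1 per the file headers. Here, outlier spots were left out, log2 intensity was taken relative to the 75th percentile of non-control spots, and repeated spots were averaged per probe. A probe was kept if its signal stood well above background in 4 or more of the 8 arrays, counted without regard to genotype (26948 of 41174). Genotypes were compared with limma 3.58.1 (R 4.3.3) with Benjamini-Hochberg adjustment over all probes, tested on simulated data. The members and gene lists were chosen with earlier results of these data known. Named genes were all member probes, Vrk1, and per list every called gene and the 3 of smallest p (brightest analysed probe), with the 5 probes most like Gpc3. Probes were named through RefSeq accession (22951), symbol (6659) or synonym (3109), with 8455 keeping the file's name, and coordinates are those in the files (mm7). The 8 arrays, 4 per genotype, limit the precision. The main comparison did not pair samples by replicate number. Deviations of same-numbered arrays correlated at 0.47, 0.07, 0.19 and -0.14, and those of differently numbered arrays at -0.37 to 0.27. These values do not settle whether the numbers pair the samples. Alternatives covered scaling, background, filtering, slide, replicate block, single arrays and the test. 1 list gene is not reported here and was left out of the list counts.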

Additional observations from a re-analysis of the deposited data

Results flagged for a closer look

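Of 44 sets of 4 arrays checked, 1 held an array far from the rest, where chance marks about 1 in 20. It was Igfbp4 A_51_P398971 in wild type replicate 3, at -2.0 on the log2 scale where its group otherwise ranged from -1.05 to -0.86. The other Igfbp4 probe was lowest on the same array, at -1.03 against -0.26 to -0.07.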

How the results depend on the processing

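Leaving aside the slide and replicate blocks, which cannot move a balanced difference, 198 of 208 alternative values of the 16 member differences moved by less than the spread between replicates, and 4 changed sign: Igf1r A_51_P318365 at -0.13 without scaling, -0.07 on slide 1 alone and -0.03 without wild type replicate 3, and Igf2r at -0.01 without scaling. The counts of calls moved far more, and the cause was not tested. The 986 probes called became 17 with no filter on dim probes, 641 with a slide block, 3 on slide 1 alone, 162 by the methods' t-test after Benjamini-Hochberg adjustment, 1915 with an intensity trend and robust variances, and 2275 with the replicate block. Leaving out 1 array gave 3 to 7655, the highest without wild type replicate 1. Calls over all probes numbered 797 with quantile scaling, 1412 after normexp correction and 916 without scaling. They numbered 1061 on slide 2 alone and 1390 of 24364 probes with the filter on all 8 arrays. The pathway counts that follow are of 87 genes, or of 94 with no filter and 86 with the filter on all 8 arrays. The 5 other pathway genes called became 12 after normexp correction, 1 without scaling, 0 with no filter (35 with an unadjusted p under 0.05), 11 with the filter on all 8 arrays, 1 with a slide block, 0 on slide 1 alone (10 unadjusted), 1 by the methods' t-test, 18 with the intensity trend, 11 with the replicate block, and 0 to 29 with 1 array left out. Quantile scaling gave 5, slide 2 alone 4 and averaging each gene's probes 6. On 4 arrays a genotype, calls near the threshold changed with the setting and with the array left out.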
